A study of Mus musculus with 12 samples.

Results

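The transcripts described here were the abundant ones of listed length 1000 to 2999 in the newborn mouse eye, 184 of the 32803 features counted. A feature is 1 distinct set of 12 counts, since transcripts with the same counts in every library cannot be told apart. Each transcript was deposited with a number that was the same in all 12 libraries and ranged from 16 to 33458. It is called the listed length here, and its unit is not given in the sources used here. Members were chosen by listed length, from 1000 to 2999 other than 1272 and 1444, and by measured counts, averaging at least 100 counts over the 6 mRNA libraries and at least 100 over the 6 ribosome footprint libraries. Both means run over the 2 genotypes together, and libraries with more counts weigh more in them, so a member could pass through 1 genotype alone. Mean mRNA counts were below 100 in KO for 54 members and in WT for 1, and mean footprint counts were below 100 in WT for 42 members and in KO for 23. The rule took 190 transcript identifiers, which formed 184 features. At the same count floor, 459 features had a listed length below 1000, 40 had one of 3000 or more and 3 had an excluded length.

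Eyes of mice at postnatal day 0.5 were profiled in 2 genotypes, wild type (WT) and RNG140 knockout (KO), with 3 ribosome footprint and 3 mRNA libraries of each, 12 in all. The labels name no strain, allele, sex, litter or pooling, so whether the 3 libraries of a group came from separate animals is not known. The p-values set the difference between genotypes against the spread among libraries of a group, and that spread may be only technical. The identifiers are not paired with gene symbols in the sources used here. The targeted gene, eye cell type markers and the function of the members were therefore not analysed here, and the knockout rests on the labels alone.

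RNG140 binds RNA and is encoded by Caprin2, and proteins of its family are found in cytoplasmic granules that hold mRNAs and regulate their translation. In ribosome profiling, nuclease removes the RNA that no ribosome covers, and the protected fragments are sequenced, so that footprint counts follow the number of ribosomes on an mRNA. Dividing footprints by mRNA from the same tissue gives a measure of translation efficiency. That ratio changes when footprints or mRNA change alone, or when both change by unequal factors, so the 3 quantities are given side by side. An eye holds many tissues, and in such bulk samples fewer cells of a type cannot be told apart from less RNA per cell.

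By the rule that chose them, members were longer and more abundant than most features, and the values here describe that choice without testing it. The median listed length of all features was 410, and 11.5% of features had one of 1000 or more. Members spanned 1016 to 2988 with a median of 1700. The nearest features above the same floor but outside the range had listed lengths of 970 and 3044. Mean counts of all features had medians of 8.17 in mRNA and 12.3 in footprints, and 2.09% of features passed the floor in both assays. Members averaged between 100 and 1327 counts in mRNA (median 180.25) and between 100.3 and 12971 in footprints (median 162). Those just inside the floor, with listed lengths 1599, 1447 and 1199, had 100, 100 and 100.3 counts in their lower assay, and those just outside, with 2594, 1311 and 1298, had 99.5, 99 and 99.

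The 184 members were not 184 independent measurements. Grouping neighbouring identifiers (same first 6 characters) whose log2 CPM (counts scaled to the library total) over the 12 libraries correlated above a Pearson r of 0.98 gave 116 runs. Of these, 80 held a single member and 36 held several, with 104 members among them, as overlapping transcripts that share reads would. The most alike were 20 members of listed length 1680 to 1735, which stood on 20 consecutive lines of the tables and had a lowest pairwise r of 0.9996. These 20 are given separately where they decide a count.

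Levels below are scaled CPM, in which TMM factors bring the libraries of an assay to a common scale. Per 1000 units of listed length, members ranged from 57.6 to 1350 scaled CPM in mRNA (median 145) and from 20.4 to 4104 in footprints (median 49.9). The member of listed length 1363 was highest on both, and that of length 1455 came next, with 913 in mRNA and 2106 in footprints. At the low end stood the member of length 2385 in mRNA, and that of length 2988 in footprints, at 57.6 and 20.4 scaled CPM per 1000 units. The ratio of mean footprint to mean mRNA scaled CPM ran in WT from 0.153 to 2.83 with a median of 0.395, and exceeded 1 in 22 members. In KO it ran from 0.151 to 5.98 with a median of 0.406, and exceeded 1 in 37.

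Libraries of the same genotype differed in how much of their counts the members took. Total counts lay between 666464 and 1244104 in the mRNA libraries and between 327847 and 5966639 in the footprint libraries. In mRNA, members took 6.69% and 6.55% of the feature counts in WT libraries 1 and 2, against 4.66% in WT library 3 and 4.26% to 4.33% in the KO libraries. Member medians in scaled CPM were 273, 288 and 198 in WT mRNA, against 227, 232 and 214 in KO mRNA. WT mRNA libraries 1 and 2 thus stood above the other 4 on this measure, and WT library 3 stood below the KO libraries. Footprint shares were 4.95%, 3.72% and 2.0% in WT, against 3.14%, 8.64% and 5.67% in KO. Footprint medians were 124, 95.4 and 71.0 scaled CPM in WT, against 69.2, 82.9 and 79.1 in KO. The WT footprint library with the fewest counts, library 1, had the highest member median, and the WT library with the most counts, library 3, had the lowest of the WT libraries.

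**Figure D1:**
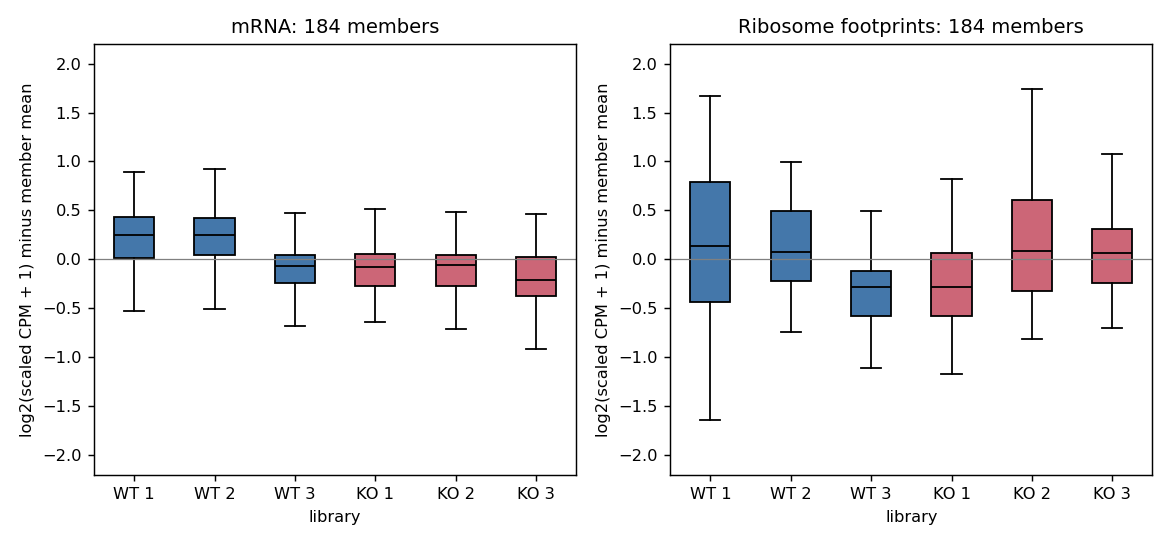
Scaled CPM of the 184 members in each library, as log2(scaled CPM + 1) minus the member's own mean over the 6 libraries of the assay; boxes span the quartiles, the line is the median, whiskers reach the most extreme member within 1.5 times the box height, and members beyond are not drawn. WT mRNA libraries 1 and 2 lie above the other 4, and WT footprint library 3 and KO footprint library 1 lie below the other footprint libraries.

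Most of the members called in mRNA were lower in KO. With edgeR's quasi-likelihood test over all 14131 features, 23 of the 184 members were lower in KO and 4 were higher at an adjusted p under 0.05, which is 12.5% and 2.17%. Of all features tested, 6.02% were lower and 9.16% higher, or 15.2% in either direction. The 27 members called in either direction were close to that share of the 184. At an unadjusted p under 0.05, 40 members were lower and 8 higher, against 13.4% and 16.7% of all features. The 23 that fell ranged in log2 fold change from -1.64 to -0.74 (median -0.88), had listed lengths from 1137 to 2682 and came from 19 runs. Of the 27 called, 17 averaged below 100 mRNA counts in KO and 1 below 100 in WT, and so passed the floor through the genotype where they were high; the counts called are a description of the members as chosen. The 4 that rose came from 3 runs. The log2 fold change was negative in 141 members and positive in 43 (50.9% positive over all features), and its median was -0.19, where that of all features was 0.02. Without the 20 alike members, all of them negative, 121 were negative and 43 positive, and the median was -0.36. Every WT library exceeded every KO library in 64 members (34.8%, against 15.9% of all features tested), and every KO library exceeded every WT library in 17 (9.24%, against 16.3%). DESeq2 also called 27 members, 20 of them shared with edgeR, where it called 9.07% of all features.

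The count of members that changed in mRNA depended on single libraries. Without WT library 3 it was 80, with 10 higher and 70 lower, while 28.1% of all features changed, 15.4% higher and 12.6% lower. Leaving out WT library 1 gave 9 and leaving out WT library 2 gave 4, where 7.14% and 6.63% of all features changed. Leaving out KO libraries 1, 2 and 3 in turn gave 13, 6 and 2, beside 10.5%, 6.07% and 4.29% of all features. Under library totals with no TMM factors the median of all features moved to -0.25 and that of the members to -0.46, with 2 members higher and 45 lower and 20.9% of all features called.

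Where WT mRNA libraries 1 and 2 were left out, so that WT was 1 library assumed to vary like the KO libraries, 2 members changed, both lower in KO. Of 17168 features then tested with edgeR, 1.91% changed, and 0.687% were lower in KO. The members' median log2 fold change was -0.05, where all features had 0.02, with 103 members negative and 81 positive (51.3% positive over all features). Without the 20 alike members, all of them positive here, 103 were negative and 61 positive, and the median was -0.13. All 23 members that had fallen kept a negative value, with a median of -0.54, and all 4 that had risen kept a positive one. They had been chosen on libraries that this comparison keeps, so the choice itself favours the same signs. Over the 184 members the 2 sets of fold changes, which share the KO libraries and WT library 3, had a Spearman correlation of 0.88, a description only.

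The position of WT library 3 was read directly as well. WT mRNA library 1 was the highest of the 6 in 68 members and WT library 2 in 67, against 16.1% and 18.2% of all features tested. Both stood above the other 4 libraries in 113 members (61.4%, against 18.2% of all features tested). WT library 3 lay above the range of the KO libraries in 68 members, below it in 59 and within it in 57 (37.0%, 32.1% and 31.0%, beside 29.9%, 30.9% and 39.2% of all features tested). The mean of WT libraries 1 and 2 exceeded WT library 3 by a median of 0.34 on the log2(scaled CPM + 1) scale and was higher in 154 members. The mean of the KO libraries differed from WT library 3 by a median of -0.03 and was higher in 87. WT library 3 was nearer to the mean of the KO libraries than to that of WT libraries 1 and 2 in 120 members (65.2%, beside 50.7% of all features tested), and the cause of the split within WT was not tested.

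**Figure D2:**
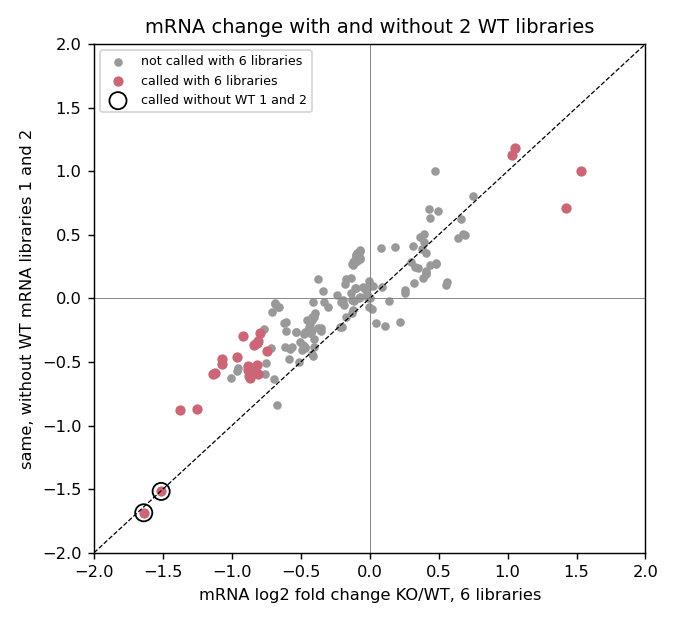
mRNA log2 fold change of KO over WT with all 6 mRNA libraries (horizontal) and without WT libraries 1 and 2 (vertical) for the 184 members; red points passed edgeR's adjusted p of 0.05 with 6 libraries, black rings passed without the 2 WT libraries, and the dashed line marks equal values. Nearly all red points on the left lie above the line, and the 2 ringed members lie close to it at about -1.5 and -1.7.

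The 2 members that fell in mRNA with either set of WT libraries were uc007jlx.1 and uc007jmn.1. WT libraries held 246.2, 273.4 and 262.5 scaled CPM of uc007jlx.1 mRNA (listed length 1931), against 78.5, 99.4 and 72.5 in KO. All 3 WT libraries, library 3 included, stood above all 3 KO libraries, at 261 ± 13.7 against 83.5 ± 14.1 (SD, n = 3 each). The log2 fold change was -1.64 ± 0.26 (SE, adjusted p = 0.000367 by edgeR), and -1.69 ± 0.30 (SE, adjusted p = 0.000204 by edgeR) against WT library 3 alone. Its footprints did not follow, with 65.0, 132.3 and 84.9 scaled CPM in WT against 64.4, 140.8 and 122.5 in KO. The 2 genotypes overlapped, and the footprint log2 fold change was 0.21 ± 0.46 (SE, adjusted p = 0.830 by edgeR). The ratio of mean footprints to mean mRNA was 0.361 in WT and 1.31 in KO, a log2 change of 2.0 ± 0.55 (SE) that did not pass edgeR's test (adjusted p = 0.248) and passed in DESeq2 (adjusted p = 0.0230). Its mean mRNA counts were 226 in WT and 51.3 in KO, so that it met the floor through WT.

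In uc007jmn.1 (listed length 1928) the WT mRNA libraries held 491.5, 473.9 and 468.2 scaled CPM and the KO libraries 211.7, 142.7 and 148.2. The WT libraries lay close together at 478 ± 12.2 (SD, n = 3), and all stood above the KO libraries at 168 ± 38.3 (SD, n = 3). The log2 fold change was -1.51 ± 0.32 (SE, adjusted p = 0.00333 by edgeR), and -1.52 ± 0.31 (SE, adjusted p = 0.00146 by edgeR) without WT libraries 1 and 2. Footprints in WT were 137.1, 156.4 and 105.7 scaled CPM, and KO libraries had 153.8, 273.5 and 332.4. KO libraries 2 and 3 exceeded every WT library and KO library 1 did not, with a log2 fold change of 0.93 ± 0.49 (SE, adjusted p = 0.279 by edgeR). Mean footprints over mean mRNA were 0.278 in WT and 1.51 in KO. The log2 change of the ratio, 2.62 ± 0.58 (SE), was the highest of all 184 members and did not pass edgeR's test (adjusted p = 0.180). It passed in DESeq2 (adjusted p = 3.0e-05) and in edgeR without WT library 3 of both assays (adjusted p = 0.0206), and the edgeR adjusted p was 0.867 without WT mRNA libraries 1 and 2.

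The 2 members with the smallest p among those that rose in mRNA were uc007aso.1 and uc007xlq.2. Levels of uc007aso.1 (listed length 1207) were 77.7, 81.7 and 139.7 scaled CPM in WT, against 264.6, 325.6 and 269.5 in KO. WT library 3 lay between the other 2 WT libraries and the KO libraries, and the genotypes did not overlap. Mean mRNA counts were 82.7 in WT and 176 in KO, so that it met the floor through KO. Its log2 fold change was 1.54 ± 0.29 (SE, adjusted p = 0.00148 by edgeR), and 1.0 ± 0.36 (SE, adjusted p = 0.132 by edgeR) without WT libraries 1 and 2. Footprints of the same transcript were 44.1, 40.7 and 58.1 in WT, against 66.7, 40.4 and 42.3 in KO, so that KO lay on both sides of WT (log2 change 0.05 ± 0.39 SE, adjusted p = 0.959 by edgeR). The ratio went from 0.478 in WT to 0.174 in KO, a log2 change of -1.35 ± 0.53 (SE, adjusted p = 0.398 by edgeR).

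In uc007xlq.2 (listed length 1410) the WT mRNA libraries held 150.1, 135.2 and 121.3 scaled CPM and the KO libraries 268.1, 242.2 and 337.3. No WT library reached a KO library, and WT library 3 was the lowest of the 6. The log2 fold change was 1.05 ± 0.27 (SE, adjusted p = 0.0123 by edgeR) and 1.19 ± 0.36 (SE, adjusted p = 0.0629 by edgeR) without WT libraries 1 and 2. Its footprints, at 27.9, 50.9 and 83.3 in WT against 137.9, 51.3 and 256.1 in KO, overlapped through KO library 2 (log2 change 1.40 ± 0.58 SE, adjusted p = 0.172 by edgeR). Its footprint value was positive like its mRNA value, and the log2 change of the ratio was 0.43 ± 0.66 (SE, adjusted p = 0.871 by edgeR).

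Of the members described by length alone, 1 more rose in mRNA. The member of listed length 2178 had 161.6, 179.8 and 385.3 scaled CPM in the WT mRNA libraries and 418.3, 864.5 and 657.3 in the KO libraries. WT library 3 was close to the lowest KO library. The log2 fold change of 1.42 ± 0.39 (SE, adjusted p = 0.0177 by edgeR) became 0.71 ± 0.39 (SE, adjusted p = 0.385 by edgeR) without WT libraries 1 and 2. WT footprints of 132.4, 190.8 and 371.3 stood against 290.5, 172.6 and 219.9 in KO, with WT library 3 the highest of the 6. Its ratio had a log2 change of -1.36 ± 0.69 (SE, adjusted p = 0.526 by edgeR).

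**Figure D3:**
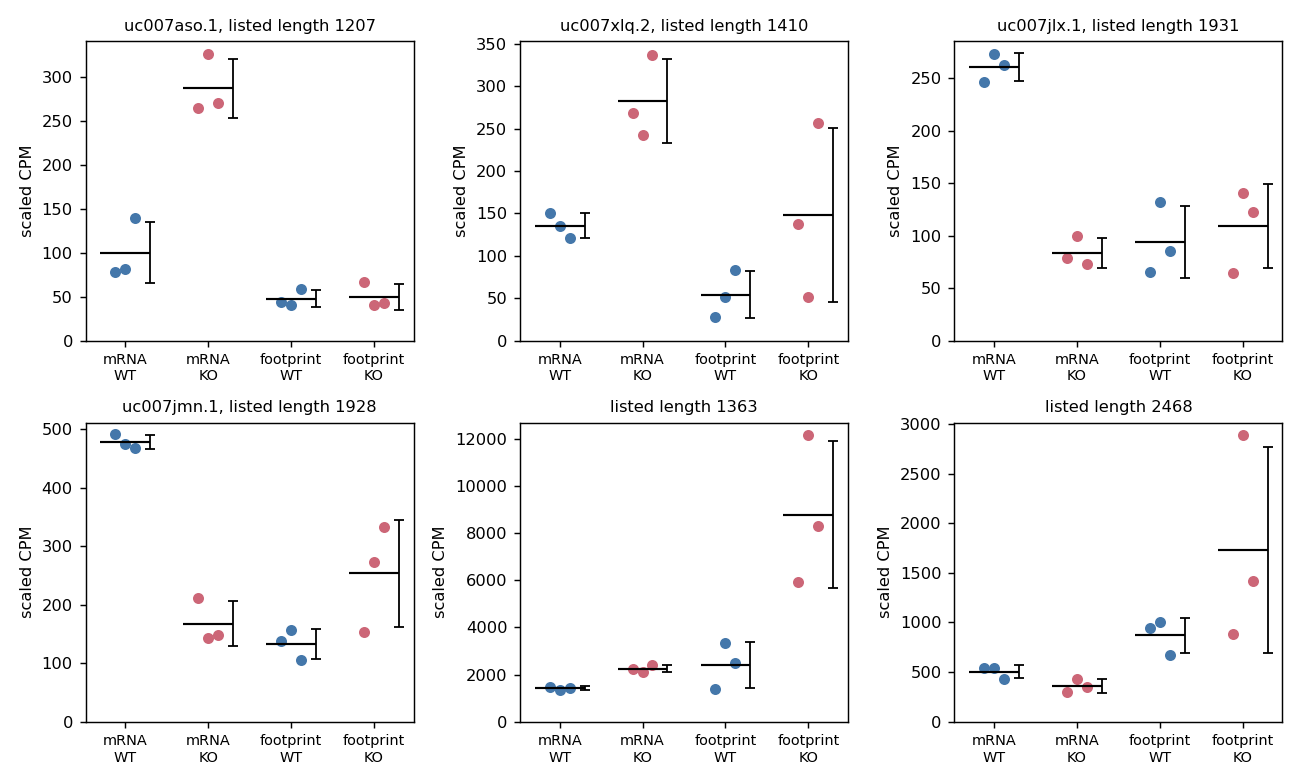
Scaled CPM of 6 members in the 3 WT (blue) and 3 KO (red) libraries of each assay; points are libraries, lines are means and bars are 1 SD (n = 3), and each panel has its own linear axis from 0. In uc007jlx.1 and uc007jmn.1 the WT mRNA points lie above the KO mRNA points while footprints do not, and in the members of listed length 1363 and 2468 KO footprint library 2 is the highest point.

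In footprints edgeR called 1 member. With edgeR over 17236 features, the member of listed length 1062 was higher in KO and no member was lower, against 0.685% of all features higher, 0.435% lower and 1.12% in either direction. It held 25.6, 38.2 and 30.8 scaled CPM in the WT footprint libraries and 95.1, 139.0 and 128.1 in the KO libraries. Every KO library was above every WT library, and the log2 fold change was 1.92 ± 0.42 (SE, adjusted p = 0.0493 by edgeR), just under the threshold. Its mean footprint counts were 52.7 in WT and 305 in KO, so that it met the floor through KO. Its mRNA, at 228.6, 203.5 and 185.8 in WT against 198.1, 335.2 and 263.2 in KO, overlapped (log2 change 0.36 ± 0.29 SE, adjusted p = 0.421 by edgeR). The second in order was the member of listed length 1795, whose footprints were 106.9, 176.8 and 136.2 in WT against 466.9, 889.5 and 625.3 in KO. The genotypes did not overlap, with a log2 fold change of 2.23 ± 0.56 (SE) that did not pass (edgeR adjusted p = 0.0546). Both were picked after their values were seen.

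The count in footprints moved with the tool and with single libraries. At an unadjusted p under 0.05, 22 members were higher and 33 lower in KO, against 10.6% and 11.2% of all features. Of the 33, 20 were the alike members of length 1680 to 1735 and 13 were others. DESeq2 called 22 members, 15 higher and 7 lower, from 18 runs, where it called 4.13% of all features, and all 22 had an unadjusted edgeR p under 0.05. Without WT library 3, 44 members were called by edgeR, 7 higher and 37 lower, where it called 5.53% of all features higher and 10.4% lower, or 16% in all. The 44 included all 20 alike members. Leaving out WT library 1 gave 1 member (2.64% of all features), and leaving out KO library 3 gave 0 (0.045%). No member and 0% of all features were called when WT library 2, KO library 1 or KO library 2 was left out.

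Fold changes of footprints went both ways, with 97 members positive and 87 negative (48.9% positive over all features). The median was 0.07, beside -0.02 over all features, and under library totals alone it was -0.024. Without the 20 alike members, all of them negative, 97 were positive and 67 negative, and the median was 0.23. Every KO library exceeded every WT library in 36 members from 31 runs (19.6%, against 14.5% of all features tested). Every WT library exceeded every KO library in 39 members from 15 runs (21.2%, against 12%), and 20 of these 39 were the alike members of length 1680 to 1735. KO footprint library 2 was the highest of the 6 in 80 members and WT library 1 in 73, against 17.5% and 27.9% of all features, so 1 library in each genotype held the top value in most members.

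The 20 alike members overlapped between genotypes in mRNA and did not overlap in footprints. Their median footprint level was 167, 85.2 and 51.8 scaled CPM in WT, against 28.9, 37.7 and 49.0 in KO. WT library 3 stood just above KO library 3, and WT library 1 stood far above the rest. Their log2 fold changes lay between -1.38 and -1.33, with edgeR adjusted p of 0.11 at the lowest, and all 20 passed without WT library 3. In mRNA the medians were 301, 295 and 195 in WT, against 261, 260 and 218 in KO, and overlapped, with log2 fold changes between -0.13 and -0.07. Against WT library 3 alone the mRNA values were 0.27 to 0.38. The ratio had log2 changes from -1.08 to -1.0, none of which passed, and from -1.60 to -1.47 without WT mRNA libraries 1 and 2. With counts this alike, the 20 are not independent observations.

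The member with the highest level in both assays had a listed length of 1363. Its footprints were 1400.8, 3330.5 and 2480.2 scaled CPM in WT, against 5931.8, 12142.6 and 8280.3 in KO. Its mRNA was 1493.7, 1354.9 and 1427.7 in WT, against 2229.8, 2113.9 and 2419.5 in KO. KO libraries lay above WT libraries in both assays, including WT mRNA library 3. Neither difference passed edgeR's test: the footprint log2 fold change was 1.87 ± 0.82 (SE, adjusted p = 0.199) and the mRNA one 0.66 ± 0.49 (SE, adjusted p = 0.389). In DESeq2 the footprint change passed (adjusted p = 0.00582) and the mRNA change did not (adjusted p = 0.0625). The log2 change of the ratio was 1.36 ± 0.99 (SE, adjusted p = 0.679 by edgeR and 0.0987 by DESeq2).

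Next in mRNA level, leaving aside members correlated above 0.95 with one already described, came listed lengths 2598 and 1898. The first held 784.9, 870.6 and 436.0 scaled CPM of mRNA in WT, against 513.9, 453.9 and 334.2 in KO, so that WT library 3 lay among the KO libraries and the log2 fold change went from -0.68 to -0.04 without WT libraries 1 and 2. Its footprints were 576.1, 352.3 and 135.4 in WT, against 81.0, 124.5 and 121.4 in KO, with WT library 3 just above the KO libraries (log2 change -1.69 ± 0.57 SE, adjusted p = 0.109 by edgeR). That footprint change passed in DESeq2 (adjusted p = 0.0262). The mRNA of the member of length 1898 was 545.7, 517.0 and 460.5 in WT, against 541.2, 497.2 and 479.2 in KO, a log2 change of -0.01 ± 0.34 (SE, adjusted p = 0.994 by edgeR). Its footprints were 257.9, 216.2 and 187.5 in WT, against 148.8, 141.7 and 142.5 in KO, where the 3 libraries lay close together and all below WT. That log2 fold change was -0.61 ± 0.45 (SE, adjusted p = 0.450 by edgeR).

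By the same rule, members of listed length 2468 and 2898 came next in footprint level. The first, from a run of 7 members of length 2167 to 2468, held 940.8, 1000.8 and 673.1 scaled CPM of footprints in WT, against 884.2, 2883.7 and 1415.3 in KO. KO library 1 lay among the WT libraries and KO library 2 far above them. The second held 455.3, 521.4 and 397.6 in WT, against 719.6, 2285.9 and 1297.8 in KO, again with KO library 2 highest, and here the genotypes did not overlap. Their footprint log2 fold changes of 0.99 ± 0.67 (SE, adjusted p = 0.405 by edgeR) and 1.65 ± 0.64 (SE, adjusted p = 0.155 by edgeR) did not pass edgeR's test. In DESeq2 that of the second passed (adjusted p = 0.0189) and that of the first did not (adjusted p = 0.221). mRNA of the first was 542.6, 539.3 and 426.8 in WT, against 302.2, 434.7 and 345.2 in KO, and that of the second 376.5, 380.3 and 337.7 in WT, against 297.1, 444.3 and 368.8 in KO, with overlap in both.

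In the footprint to mRNA ratio edgeR called no member. Members were chosen on the counts that form this ratio. Mean mRNA counts were below 100 in KO for 54 members and in WT for 1. Mean footprint counts were below 100 in WT for 42 and in KO for 23. Such a choice can favour a higher ratio in KO, so the numbers of members given here describe the members as chosen. The assay-by-genotype interaction in edgeR called 0% of 25927 features, and at an unadjusted p under 0.05 it found 37 members higher and 1 lower in KO, against 4.67% and 5.23% of all features. The log2 change was positive in 133 members and negative in 51, and its median was 0.44, where all features had -0.07 and were positive in 46.6%. Without WT mRNA libraries 1 and 2 the split was 107 to 77 (46.8% positive over all features) and the median 0.25 beside -0.07. Then 7 members were higher and 7 lower at an unadjusted p under 0.05 (2.25% and 3.32% of all features), with 0 called by edgeR. DESeq2 called 13 members, all higher in KO and from 11 runs, where it called 0.224% of all features. The count in edgeR was 2 without WT library 3 of both assays (0.525% of all features), and 1 without WT footprint library 1 or 3 alone (0.14% and 0.425%).

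A negative mRNA and a positive footprint fold change stood together in 57 members, and the opposite signs in 3, among members chosen on these same counts. Against WT mRNA library 3 alone these counts were 46 and 30, and all 20 alike members were among the 30. In that comparison each of the 20 was positive in mRNA and negative in footprints. With all libraries another 40 were positive and 84 negative in both assays, and the Spearman correlation of the 2 fold changes was 0.37 over the 184 members. Among the 23 members that fell in mRNA, footprints had a negative fold change in 14 and a positive one in 9, from -1.46 to 0.93, and the ratio was positive in 20. These 23 were chosen for low mRNA in KO, and mRNA divides the ratio, so the choice itself favours a positive ratio. The member of listed length 1935 was second in the ratio by its p after uc007jmn.1 among those higher in KO. It averaged 148 mRNA counts in WT and 63.7 in KO, and 41.0 footprint counts in WT and 177 in KO, so it met each floor through the genotype where it was high. Its mRNA was 170.7, 175.3 and 156.6 scaled CPM in WT, against 100.7, 121.9 and 88.3 in KO, and its footprints 27.9, 44.5 and 19.98 in WT, against 58.1, 87.7 and 59.6 in KO. The genotypes did not overlap in either assay, WT mRNA library 3 included. The log2 changes were -0.69 ± 0.25 (SE, adjusted p = 0.0579 by edgeR) in mRNA, 1.18 ± 0.42 (SE, adjusted p = 0.125 by edgeR) in footprints and 2.06 ± 0.51 (SE, adjusted p = 0.210 by edgeR) in the ratio. In DESeq2 the ratio passed (adjusted p = 0.0173), and mRNA and footprints did not (adjusted p = 0.114 and 0.113).

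**Figure D4:**
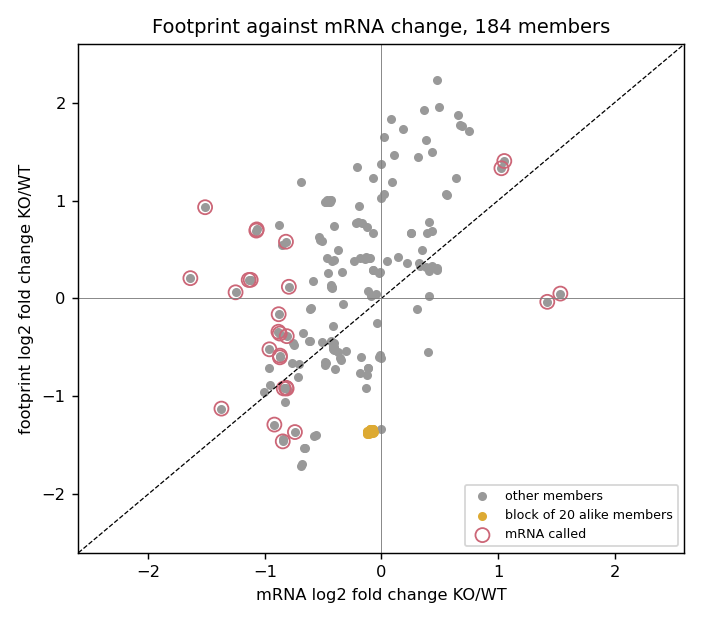
Footprint against mRNA log2 fold change (KO over WT) for the 184 members; yellow points are the 20 alike members, red rings mark members that passed edgeR's adjusted p of 0.05 in mRNA, and the dashed line marks equal change, above which the ratio is higher in KO. The upper left holds 57 members and the lower right 3, and the 20 alike members sit together at a footprint value near -1.4. When WT mRNA libraries 1 and 2 are left out (not drawn) the counts are 46 and 30, and the 30 include all 20 alike members.

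Members with the highest footprint levels had the highest ratio change. When members were split in 3 by mean footprint CPM, the median ratio change was 0.05 in the lowest, 0.37 in the middle and 1.18 in the highest group. Against WT mRNA library 3 alone these medians were -0.13, -0.08 and 1.05, so the lower groups turned negative and the highest kept its sign. The Spearman correlation of mean footprint CPM with the footprint fold change was 0.44 (n = 184). The mean includes the KO libraries, so the level and the change are not independent.

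Within the members, listed length went with the mRNA change. The Spearman correlation of listed length with the mRNA log2 fold change was -0.35 over 184 members, or -0.20 against WT mRNA library 3 alone. For footprints it stood at -0.17 and for the ratio at 0.06. Median mRNA log2 fold changes were 0.10 in the 28 members of length 1000 to 1249, -0.02 in the 32 of 1250 to 1499, -0.13 in the 65 of 1500 to 1999, -0.43 in the 40 of 2000 to 2499 and -0.58 in the 19 of 2500 to 2999. The medians without WT libraries 1 and 2 were -0.02, 0.14, 0.00, -0.26 and -0.18 in the same order, so the fall from the shortest to the longest class was smaller. Members that fell numbered 1, 2, 14, 5 and 1, and those that rose 1, 2, 0, 1 and 0.

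Footprints showed no such order, with medians of 0.46, 0.32, -0.61, 0.19 and -0.53 in the 5 classes. The class of 1500 to 1999 holds the 20 alike members, and without them its medians were -0.42 in mRNA, -0.16 in footprints and 0.45 in the ratio. Ratio medians were 0.51, 0.42, 0.12, 0.71 and 0.09 over all members, and 0.68, 0.26, -0.31, 0.47 and -0.24 against WT mRNA library 3 alone, negative in 2 classes. Without the 20 alike members, the class of 1500 to 1999 had -0.14 in mRNA and 0.29 in the ratio against WT mRNA library 3 alone. Features of the same lengths below the count floor had a median mRNA log2 fold change of -0.31, with 86 higher and 367 lower of 2654 tested. Abundant features of length below 1000 had a median of 0.95, with 171 higher and 18 lower of 459, and those of 3000 or more had -0.50, with 1 higher and 16 lower of 40. Against WT mRNA library 3 alone the medians in the same order were -0.08, 0.19 and -0.30, with 33 higher and 32 lower, 8 and 8, and 1 and 0. These differences between classes were not tested, and every class shares the same 6 mRNA libraries.

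**Figure D5:**
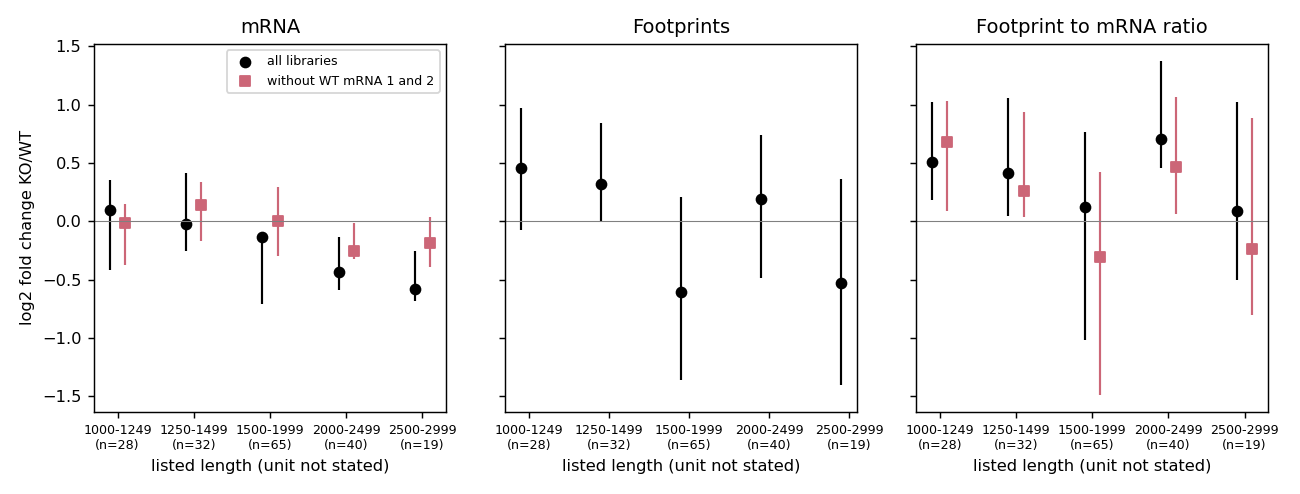
Median log2 fold change (KO over WT) of the members in 5 classes of listed length for mRNA, footprints and their ratio; black circles use all libraries, red squares leave out WT mRNA libraries 1 and 2, bars span the quartiles over members, and n is the number of members. The mRNA medians run from 0.10 in the shortest class to -0.58 in the longest with all libraries, and from -0.02 to -0.18 without the 2 WT libraries.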

How the data were processed

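Each genotype had 3 mRNA and 3 ribosome footprint libraries. Per the labels, footprints came from RNase I digestion and pelleted ribosomes, with ribosomal RNA removed, and mRNA libraries from a stranded TruSeq kit. The submitters' processing notes name CASAVA 1.8, TopHat2 2.0.9, Bowtie2 2.3.4.2 and mm10. Whole counts of reads for 63759 identifiers were deposited by the authors without normalization. Not given in the sources used here is how reads were counted or shared between transcripts. Listed length is the other deposited column, a number with no stated unit, and was missing for 17340 identifiers without counts.

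Counts were tested with edgeR 4.0.16 (limma 3.58.1, R 4.3.3): quasi-likelihood F tests, library sizes after the default low-count filter, TMM, and Benjamini-Hochberg adjustment over all features, with a threshold of 0.05. The ratio was the assay-by-genotype interaction in 12 libraries, for features with at least 10 counts in each assay. All 184 members passed these filters. Standard errors derive from the F statistic. The shallowest footprint library held a median of 53.5 counts per member. The scripts were tested on simulated data. Alternatives were DESeq2 1.42.0 (its test, and its size factors), library totals, no filter, every transcript separate, other count floors, 1 member per run, leaving out libraries, and the replicate number as a block. The members, lists and tests were chosen with earlier results of these data known. Identifiers were printed for the 2 members with the smallest mRNA p in each direction among those that passed without overlap of genotypes. By length, the rule took the 3 highest in each assay and the 2 with the smallest ratio p in each direction, skipping members correlated above 0.95 with one taken. Gene lists and markers were not analysed here.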

Additional observations from a re-analysis of the deposited data

How the results depend on the processing

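Moving the floor to 200 counts left 43 members, of which 5 changed in mRNA and 0 in footprints, with medians of -0.43 in mRNA, 0.69 in footprints and 1.01 in the ratio. A floor of 50 counts gave 702 members, with 143 changed in mRNA, 10 in footprints and a footprint median of -0.29. A floor of 100 CPM, chosen after seeing the data, gave 89 members, with 9 and 0 changed and medians of 0.62 in footprints and 0.96 in the ratio. These floors change only the list of members, and edgeR called 15.2% of all features in mRNA and 1.12% in footprints throughout. With library totals only, 47 members changed in mRNA (median -0.46) and 0 in footprints, beside 20.9% and 0% of all features. Without WT mRNA libraries 1 and 2, 2 changed in mRNA. DESeq2 called 22 in footprints and 13 in the ratio, beside 4.13% and 0.224% of all features. Testing every transcript separately, or taking totals before the filter (added after seeing the data), gave 0 in footprints, beside 0.422% and 0.47% of all tested. Without WT footprint library 1 or 3, both added later, 1 changed in the ratio, beside 0.14% and 0.425% of all features. The cause of these shifts was not tested.

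Leaving out 1 replicate at a time, counts ranged from 2 to 80 in mRNA, 0 to 44 in footprints and 0 to 2 in the ratio. The replicate number as a block gave 21 calls in mRNA, 0 in footprints and 8 in the ratio. Of all features it called 15%, 0% and 1.24% in the same order. All 8 in the ratio were among those DESeq2 called. With the block, the ratio passed for uc007jmn.1 (adjusted p = 0.00048), uc007jlx.1 (0.0082) and the member of length 1935 (0.0028). The labels do not say that a number marks a shared animal, and not every pair of same-numbered libraries correlated above 0.1. Deviations of WT and KO libraries of 1 assay correlated between -0.40 and 0.13, and those of mRNA and footprints of 1 genotype between 0.040 and 0.57, where the same number gave the best match in 5 of 6, which is seen in the values and is not part of the design.

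Directions turned for values near 0. With library totals, the footprint value of uc007aso.1 was -0.022, and leaving out 1 replicate it ranged from -0.21 to 0.29. That of uc007jlx.1 ranged from -0.0098 to 0.51, and the ratio of uc007xlq.2 from -0.012 to 1.13. The mRNA value at length 1898 was 0.10 without WT mRNA libraries 1 and 2, and -0.11 to 0.034 leaving out 1 replicate. At length 2898 it was -0.077 with no filter, -0.25 with library totals, and -0.13 to 0.16 leaving out 1. The footprint value at length 2178 was 0.061 with the block, and -0.34 to 0.52 leaving out 1.

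Depth was lowest in WT footprint library 1, with a median of 53.5 counts per member against 270 in WT footprint library 3.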
